A study of Mus musculus with 12 samples.

Results

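The amino acid transporters studied here are the genes of the Slc1, Slc3, Slc6, Slc7, Slc36, Slc38 and Slc43 families, without 1 member of the Slc7 family that was set aside by the rule, and each was read at its probe with the highest mean signal. They number 62 of the 24232 genes that could be named on the array, and all 62 have a probe. Expression was measured on 12 Agilent one-colour arrays with RNA from bone marrow-derived dendritic cells (DCs) of female C57BL/6 mice, with 3 arrays per group, each from a pool of 3 animals. Young DCs came from 2-month-old mice with no agent, and Young-Abx DCs came from 2-month-old mice given an antibiotic cocktail in drinking water (ampicillin, neomycin, metronidazole and vancomycin). Old DCs came from 24-month-old mice with no agent, and Old-LP DCs came from 24-month-old mice gavaged with Lactobacillus plantarum (LP). Marrow of every group was cultured with GM-CSF and IL-4, and the loosely adherent cells, which were harvested without a sort, were matured with LPS at 1 μg/ml for 24 h. No unstimulated cells are among the arrays, so every level below is that of a matured culture.

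Amino acid transporters are membrane proteins that move amino acids and related small molecules, often by coupling them to sodium, protons or another amino acid. In activated DCs and macrophages they supply arginine to arginase and nitric oxide synthase, tryptophan to the kynurenine pathway, glutamine to the mitochondria, and leucine and arginine to the mTORC1 kinase that senses them at the lysosome. The Slc6 family also holds the carriers of neurotransmitters, creatine, taurine and betaine, several of which are known from neurons, kidney or platelets rather than from DCs.

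The arrays of replicates A and B lie on slide 1 for all 4 groups, while Young C and Young-Abx C lie on slide 2 and Old C and Old-LP C on slide 3. Between C arrays of old and young mice, age and slide therefore cannot be told apart, and the replicate letter as a block does not separate them. The C arrays were dimmer, with a 75th percentile of the intensity between 87.8 and 249, against 670 to 1194 on slide 1, and with 37.3 to 46.0% of spots well above background against 61.2 to 66.4%. Within a group, A and B correlated at r of 0.992 to 0.995 over all probes and C with either at 0.900 to 0.950. Calls made with the replicate letter or the slide as a block, and on slide 1 alone, are therefore given beside or after those without a block. With the slide as the block, C arrays of old mice are not set directly against those of young mice, since no slide holds both. The pools are described as independent, but no label ties an array to its animals or culture, so the p-values measure the spread between these arrays, part of which may be technical. Of 13 DC markers (among them Itgax, Cd74 and Ccr7), 11 were well above background on all 12 arrays. The summed signal of the 13 lay between 18.55 and 18.85 on the log2 scale in every group. That sum is set mostly by the brightest genes, such as Cd74, and does not show that each marker was constant. Cd86, for example, had means of 12.09 in Young and 11.5 in Old. With the replicate block 1 of the 13 was called higher and 2 lower in Old against Young, beside 2.18% of all probes.

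Of the 62 transporters, 29 (46.8%) were well above background on all 12 arrays, compared with 44.2% of all named genes. Another 5 passed on every array of 1 group or more but not on all 12, 14 passed on some arrays, and 14 (22.6%, against 27.4% of named genes) passed on no array. Slide 1 arrays showed 40 to 45 transporters above background and the C arrays 30 to 34. All 5 genes grouped as cationic carriers of the Slc7 family were above background everywhere. So were both neutral carriers of the Slc1 family, 7 of 11 members of the Slc38 family and 4 of 6 carriers of GABA, betaine, taurine and creatine. In contrast, none of the 5 glutamate carriers and none of the 9 carriers grouped as other members of the Slc6 family reached background on all arrays.

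**Figure D1:**
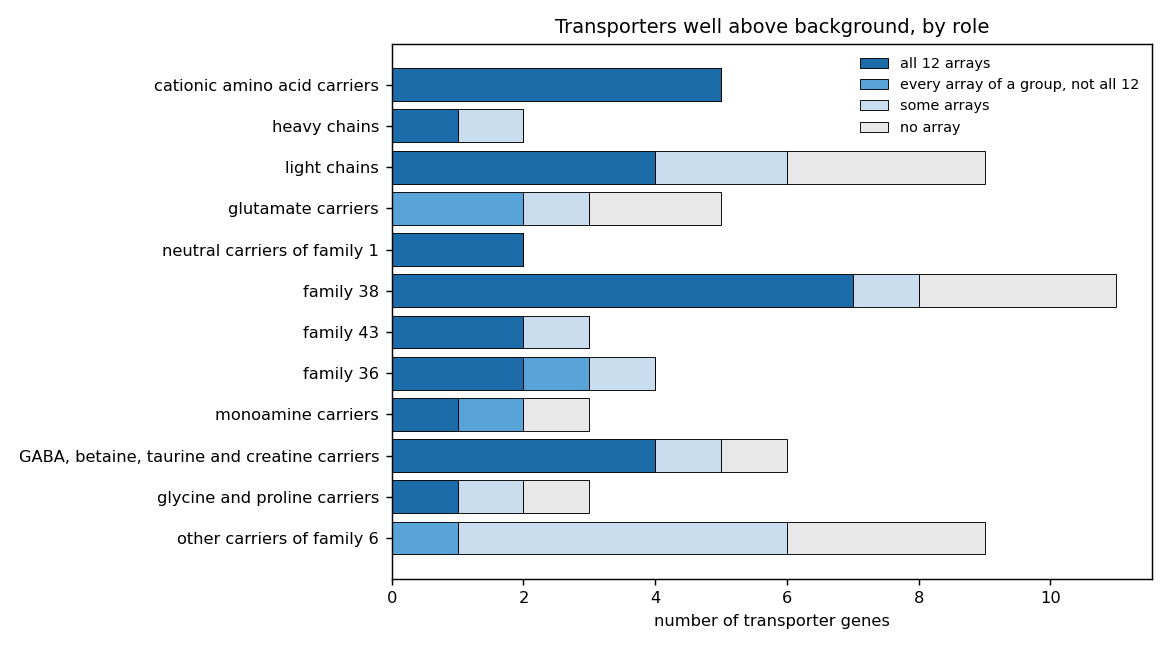
Number of transporter genes (x axis) in each role (y axis), divided by how many of the 12 arrays showed the gene well above background. The 5 genes grouped as cationic carriers were detected on all arrays, whereas 0 of 5 glutamate carriers were.

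The 12 transporters with the highest mean signal were Slc3a2, Slc6a6, Slc36a2, Slc38a1, Slc43a2, Slc38a2, Slc6a12, Slc7a7, Slc1a5, Slc38a6, Slc6a13 and Slc7a8. A probe's brightness depends on its sequence as well as on its transcript, so these are named as a group and their levels are not ranked against each other. The 14 that were on no array above background were Slc7a9, Slc7a12 and Slc7a13 among the light chains, Slc1a3 and Slc1a6 among the glutamate carriers, Slc38a4, Slc38a5 and Slc38a11, the noradrenaline carrier Slc6a2, the GABA carrier Slc6a11, the glycine carrier Slc6a5, and Slc6a14, Slc6a18 and Slc6a21. No level was measured for these genes, which does not show that the transcript is missing.

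The first comparison asked which transporters differ between DCs of old and young mice. Slc1a1, which encodes the glutamate, aspartate and cysteine carrier EAAT3, was the only one of 62 transporters that passed both thresholds (an adjusted p of at most 0.05 over all 56605 probes and a log2 difference of at least 0.5), and it was higher in Old DCs. Without a block, 0.62% of all probes passed. The log2 normalized intensity of Slc1a1 was 1.87, 1.71 and 3.24 on the Young A, B and C arrays, 5.25, 5.10 and 5.67 in Old, 5.18, 5.35 and 6.01 in Young-Abx, and 2.23, 2.24 and 3.94 in Old-LP. All 6 arrays of Old and Young-Abx lay above all 6 arrays of Young and Old-LP. Slc1a1 was well above background on 0 of 3 Young arrays, 2 of 3 Old arrays, 3 of 3 Young-Abx arrays and 0 of 3 Old-LP arrays, so the level in Young and Old-LP is only bounded. The mean of Old lay 2.38-fold above the bound for Young. That mean includes an Old array not well above background, so the value is not a strict minimum. The fitted log2 difference was 3.07 (limma, SE 0.536, adjusted p = 0.0352), and it was 3.39 on slide 1 and 2.44 between the C arrays. With the replicate letter as a block its adjusted p was 0.00161. The size depends on how dim signal was treated, since the difference was 0.69 (adjusted p = 0.0825) after normexp background correction, which lifts dim signals by an offset, and 0.76 (adjusted p = 0.0632) in the log2 table deposited by the authors.

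In Young-Abx DCs Slc1a1 rose in the same direction, at least 2.67-fold above Young, with a log2 difference of 3.24 (SE 0.536; limma, adjusted p = 0.0397). It was again the only transporter called of 62, beside 0.344% of all probes, and the block gave an adjusted p of 0.00217 with 1 transporter called beside 0.984% of probes. Both comparisons use the same 3 Young arrays, so the values stand side by side and are not independent of each other. The second probe of Slc1a1, which was above background on 4 arrays, gave 1.52 and 1.54 (SE 1.02, adjusted p of 1 in each) for Old and Young-Abx against Young. Leaving out each array in turn ended each call in 9 of 12 fits, namely without any A or B array, and without Old C for the call in Old and Young-Abx C for that in Young-Abx. Over the 12 fits the adjusted p spanned 0.0122 to 0.184 for Old and 0.0124 to 0.223 for Young-Abx. Over all alternatives the difference in Young-Abx against Young spanned 0.85 to 3.72, higher in Young-Abx in all 24.

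Old-LP DCs were then compared with Old DCs, which addresses the effect of LP in old mice. No transporter passed without a block (0 of 62, beside 0.348% of all probes). There the log2 difference of Slc1a1 was -2.54 (limma, SE 0.536, adjusted p = 0.115). The bound for Old-LP lay 2.37-fold below the mean of Old, which again includes an array not well above background. With the replicate letter as a block Slc1a1 fell in Old-LP (adjusted p = 0.00543), and it was the 1 transporter called beside 1.65% of all probes. Its difference was -2.94 on slide 1 and -1.73 between the C arrays. At an unadjusted p under 0.05 with the same minimum difference, 7 transporters were lower and 0 higher in Old-LP, beside 5.79% of all probes in either direction.

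The promoters of the 2 transporters that carry most of these results are shown because Slc1a1 was the called member and Slc6a4, the serotonin carrier described next, was called with the block and was above background on all arrays. Each is the 250 bases before the start site in the RefSeq table for GRCm38.p6, 5′ to 3′ on the gene's strand, with CpG dinucleotides in capitals, and lies at chr19:28834885-28835134 (plus strand) for Slc1a1 and chr11:76998347-76998596 (plus strand) for Slc6a4.
Slc1a1: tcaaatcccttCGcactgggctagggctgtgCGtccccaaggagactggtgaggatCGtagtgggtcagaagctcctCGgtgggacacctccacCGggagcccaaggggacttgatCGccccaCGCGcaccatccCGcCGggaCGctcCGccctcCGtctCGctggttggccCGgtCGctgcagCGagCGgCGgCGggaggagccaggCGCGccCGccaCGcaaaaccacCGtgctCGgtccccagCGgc
Slc6a4: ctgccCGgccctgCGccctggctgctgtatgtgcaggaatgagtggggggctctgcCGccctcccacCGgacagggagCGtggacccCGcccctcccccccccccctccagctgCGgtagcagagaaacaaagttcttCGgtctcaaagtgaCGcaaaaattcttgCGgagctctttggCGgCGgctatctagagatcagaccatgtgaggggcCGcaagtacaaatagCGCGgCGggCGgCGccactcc

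The Slc1a1 window holds 27 CpGs and the Slc6a4 window 18, against a median of 6 (quartiles 2 and 16) over the 32851 promoters of that table. Windows of Slc6a3 and Slc1a2, whose levels follow, hold 16 and 1. The table holds 65 promoters for 44 of the 62 transporters. TGATGNAA, the core of the amino acid response element, was searched on both strands and occurs in 3 of these 65 windows (4.62%, against 3.45% of all windows), those of Slc7a7 and Slc6a21. AGATAA, a form of the GATA motif, occurs in 4 (6.15%, against 9.99%), those of Slc7a7, Slc7a9 and Slc3a1. Neither string is in the windows of Slc1a1, Slc1a2, Slc6a3 or Slc6a4. Other forms of the GATA motif were not counted over all windows, so these windows are not shown to lack GATA sites. One such form, AGATAG, lies in the Slc1a2 window and, as CTATCT on the other strand, in the Slc6a4 window. Whether these sites act in DCs was not tested.

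The second glutamate carrier on the arrays, Slc1a2 (EAAT2, the main glutamate carrier of astrocytes), had levels of 3.55, 2.92 and 5.52 in Young, 5.12, 5.16 and 6.53 in Old, 4.80, 4.87 and 6.24 in Young-Abx, and 3.59, 4.38 and 5.89 in Old-LP. It was above background on 8 arrays and its groups overlapped, because the C array stood above A and B in each group. The difference was 1.61 in Old against Young (SE 0.791; limma, adjusted p = 0.915), and it passed with the block (adjusted p = 0.0351). In Young-Abx against Young it was 1.31 and in Old-LP against Old -0.98, and neither passed with or without the block. The third, Slc1a7, was above background on 8 arrays with the lowest level of 1.89 on Old C and the highest of 5.16 on Young C.

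The serotonin carrier Slc6a4 (SERT), which takes up serotonin in neurons, platelets and mast cells, was above background on all 12 arrays. Its levels were 8.73, 8.59 and 9.11 in Young, 10.16, 10.09 and 9.57 in Old, 10.06, 10.01 and 9.84 in Young-Abx, and 9.01, 8.88 and 9.04 in Old-LP. Every Old and Young-Abx array was above every Young and Old-LP array. The difference between Old and Young was 1.13 (SE 0.234; limma, adjusted p = 0.0825 without a block and 0.0351 with it), so Slc6a4 passed in Old DCs with the block and not without it. Between Young-Abx and Young it was 1.16 (adjusted p = 0.11, and 0.0526 with the block), and between Old-LP and Old -0.96 (adjusted p = 0.203, and 0.0774 with the block). With the slide as the block all 3 differences passed (adjusted p = 0.0207, 0.0219 and 0.0341). The differences were 1.46, 1.37 and -1.18 on slide 1 and 0.47, 0.73 and -0.53 between the C arrays.

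The dopamine carrier Slc6a3 (DAT) had levels of 4.43, 4.50 and 5.69 in Young, 6.31, 6.56 and 7.21 in Old, 5.91, 6.00 and 7.03 in Young-Abx, and 4.50, 4.26 and 6.65 in Old-LP. It was above background on 11 arrays, with 2 of 3 in Young. Old and Young did not overlap, whereas Old-LP C lay above Old B. Old exceeded Young by 1.82 (SE 0.636; limma, adjusted p = 0.516 without a block and 0.0232 with it). Over 23 alternatives this difference spanned 0.87 to 2.22, and it was called in 3 of them. The differences of 1.44 in Young-Abx against Young and -1.55 in Old-LP against Old passed with the slide as the block (adjusted p = 0.0477 and 0.0267), and not with the letter as the block or without one. Thus 4 transporters (Slc1a1, Slc1a2, Slc6a3 and Slc6a4) were called higher and 0 lower in Old against Young with the block, beside 2.18% of all probes. The slide block called the same 4 (beside 2.7% of all probes), Slc1a1, Slc6a3 and Slc6a4 higher in Young-Abx against Young (beside 2.04%), the same 3 lower in Old-LP against Old (beside 3.29%), and Slc1a1 lower in Old-LP against Young-Abx (beside 0.728%).

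**Figure D2:**
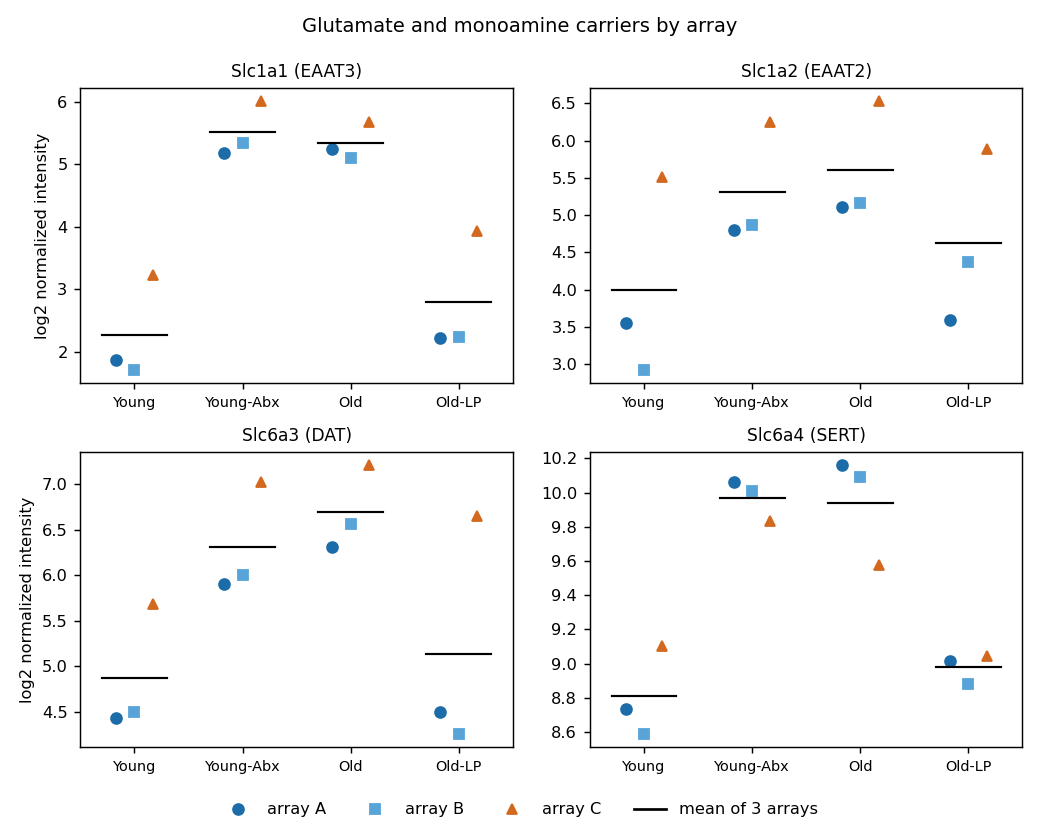
Log2 normalized intensity (y axis) of Slc1a1, Slc1a2, Slc6a3 and Slc6a4 in each of the 12 arrays by group (x axis), with the mean of 3 arrays as a line. Old and Young-Abx arrays stand above Young and Old-LP arrays for Slc1a1 and Slc6a4, and the C arrays (triangles) stand above A and B for Slc1a2.

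Some markers of other cell types, and not others, differed between the same groups as these carriers. In a list of 12 megakaryocyte and erythroid genes, 3 were called higher in Old against Young (Gp1bb, Gp9 and Epor) and the same 3 in Young-Abx against Young. Gp1bb and Epor were called lower in Old-LP against Old. Of all probes, 0.62%, 0.344% and 0.348% were called in these comparisons. With the replicate block, 6 and 5 of the list were called higher in Old and in Young-Abx against Young. In Old-LP against Old 5 were called lower with it, and the shares of all probes were 2.18%, 0.984% and 1.65%. The difference of Gp1bb, a platelet glycoprotein, was 2.83, 2.51 and -2.41 in these comparisons. Of the 12 genes, 8 were higher in Old than in Young and 4 lower, the 4 being the erythroid genes Hbb-bt (-2.69), Klf1 (-0.80), Hba-a1 (-0.49) and Car1 (-0.26), which did not pass. The summed log2 signal of the list was 15.80 to 16.20 in Young, 16.33 to 16.89 in Old, 16.39 to 16.86 in Young-Abx and 15.91 to 16.31 in Old-LP. Of its defining genes, Pf4 was above background on all 12 arrays and Klf1 on 2. The list of 10 measured mast cell and basophil genes, whose cells also carry Slc6a4, had 0 calls in each of the 6 comparisons by limma without a block (1 with it, higher in Old-LP than in Old). Its summed signal overlapped between all groups over the 12 arrays (13.75 to 15.93 in Old). On slide 1 the sum was lowest in Old, at 13.91 and 13.75. It was 14.49 and 14.54 in Young, 14.27 on both Young-Abx arrays, and 14.72 and 14.67 in Old-LP. Among the C arrays, Old C was highest at 15.93. Of 9 neutrophil genes, Camp, which encodes a granule peptide, was called higher in Old and in Young-Abx against Young (2.71 and 2.46, limma, adjusted p = 0.0208 and 0.0498), and it had -2.03 in Old-LP against Old (adjusted p = 0.113, and 0.0119 with the block), while 6 of the 9 genes were lower in Old than in Young. The summed signal of 6 T cell genes was 12.42 to 13.15 in Old, below Young (13.87 to 14.68), Young-Abx (13.60 to 14.59) and Old-LP (13.76 to 14.26), with 0 of 6 called by limma in Old against Young. Fewer cells of a type and less RNA per cell cannot be told apart in these bulk cultures, and the part of such cells in the levels of Slc6a4, Slc6a3, Slc1a1 and Slc1a2 was not tested.

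**Figure D3:**
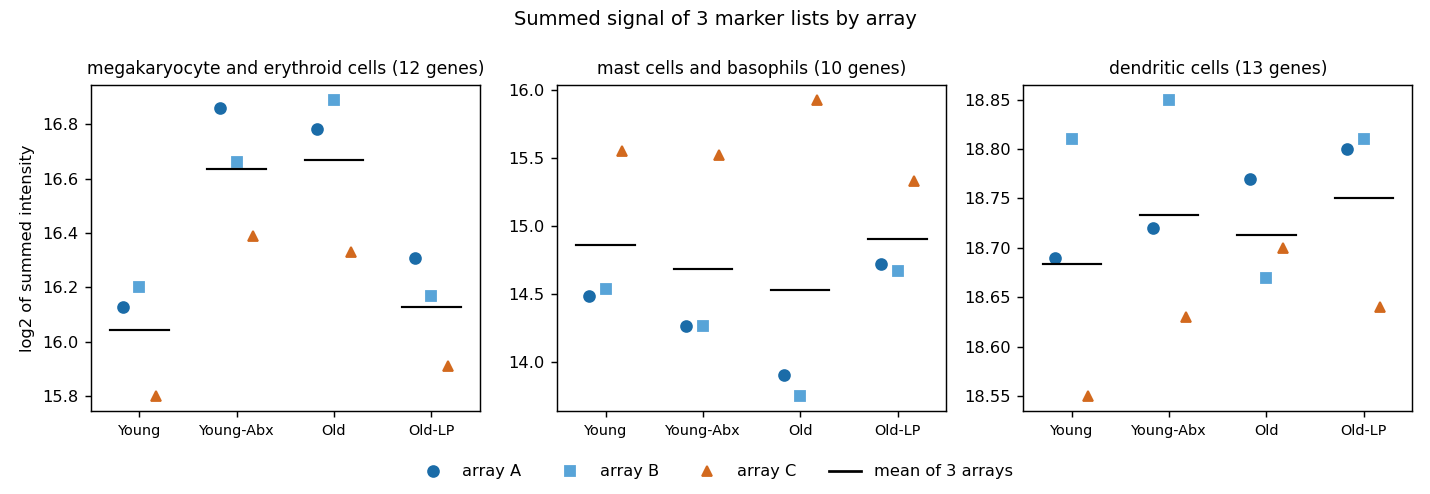
Log2 of the summed intensity (y axis) of 3 marker lists in each array by group (x axis), with the mean of 3 arrays as a line. The megakaryocyte and erythroid list lies at 16.33 to 16.89 in Old and 15.80 to 16.20 in Young. The sum of the DC list, set mostly by its brightest genes, lies between 18.55 and 18.85.

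The genes grouped as cationic carriers, of which Slc7a1, Slc7a2 and Slc7a3 import arginine, lysine and ornithine, did not pass in any of the 6 comparisons over the 12 arrays. Slc7a1 (CAT1) lay between 10.04 and 11.37, with group means of 10.88 ± 0.725 in Young and 11.1 ± 0.360 in Old (SD, n = 3). Slc7a2 (CAT2), which supplies arginine to activated macrophages, had group means of 9.69 ± 1.75, 9.63 ± 1.51, 9.64 ± 1.5 and 9.63 ± 1.89 in Young, Young-Abx, Old and Old-LP. The C arrays read 7.45 to 7.91 against 10.40 to 10.78 on slide 1, and within slide 1 the groups lay inside that span. Slc7a3 (CAT3) was 7.61, 7.25 and 7.86 in Young and 8.37, 8.37 and 9.05 in Young-Abx, with no overlap. In Old it was 8.58, 8.49 and 7.16, so that the C array went against A and B. Slc7a4 and Slc7a14 lay at 7.81 to 8.62 and 6.67 to 8.08, and the difference of Slc7a14 in Young-Abx against Young was -0.21 (SE 0.386; limma, adjusted p of 1).

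CD98, the heavy chain encoded by Slc3a2, carries its light chains to the cell surface. Slc3a2 was 13.48, 13.54 and 15.08 in Young, 14.29, 14.19 and 15.74 in Old, 14.05, 14.22 and 15.30 in Young-Abx, and 13.89, 13.66 and 14.89 in Old-LP. Each Old array was thus above the Young array of the same letter, but the groups overlapped through the C arrays, and no comparison passed over the 12 arrays with or without the block. Its second probe, also above background on all arrays, gave 0.16 in Old and -0.50 in Young-Abx against Young (SE 0.283, adjusted p of 1 in each), so the probes disagree on Young-Abx. The other heavy chain, Slc3a1 of kidney and intestine, was above background on 6 arrays.

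Among the 9 light chains, Slc7a5 (LAT1, which exchanges leucine and tryptophan for glutamine) was above background on all arrays at 6.22 to 7.23. Group means were 6.66 ± 0.450 in Young, 6.49 ± 0.316 in Young-Abx, 6.61 ± 0.545 in Old and 6.47 ± 0.0538 in Old-LP, and Young-Abx differed from Young by -0.18 (SE 0.330; limma, adjusted p of 1). Slc7a7 and Slc7a6, which export arginine in exchange for neutral amino acids, lay at 11.59 to 12.31 and 8.58 to 9.29. Slc7a8 (LAT2) was 11.12, 11.05 and 11.29 in Young and 10.81, 10.82 and 11 in Young-Abx, a difference of -0.28 with no overlap that did not pass (SE 0.321; limma, adjusted p of 1), and its second probe gave 0.39. The difference of Slc7a8 in Old-LP against Old was 0.33 (adjusted p of 1). Slc7a10 was above background on 1 array and Slc7a15 on 5.

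The neutral carriers of the Slc1 family also did not pass. Slc1a5 (ASCT2), a main route of glutamine uptake in dividing and activated cells, had group means of 11.62 ± 0.552, 11.63 ± 0.471, 11.56 ± 0.660 and 11.74 ± 0.383 in Young, Young-Abx, Old and Old-LP. Its C arrays, on slides 2 and 3, read 12.17 to 12.32 and its slide 1 arrays 11.09 to 11.55, while the groups overlapped. Slc1a4 (ASCT1) had its C arrays lower instead, with 8.52 to 9.71 against 10.19 to 10.88 on slide 1. Replicate letter C and its slides cannot be told apart here.

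**Figure D4:**
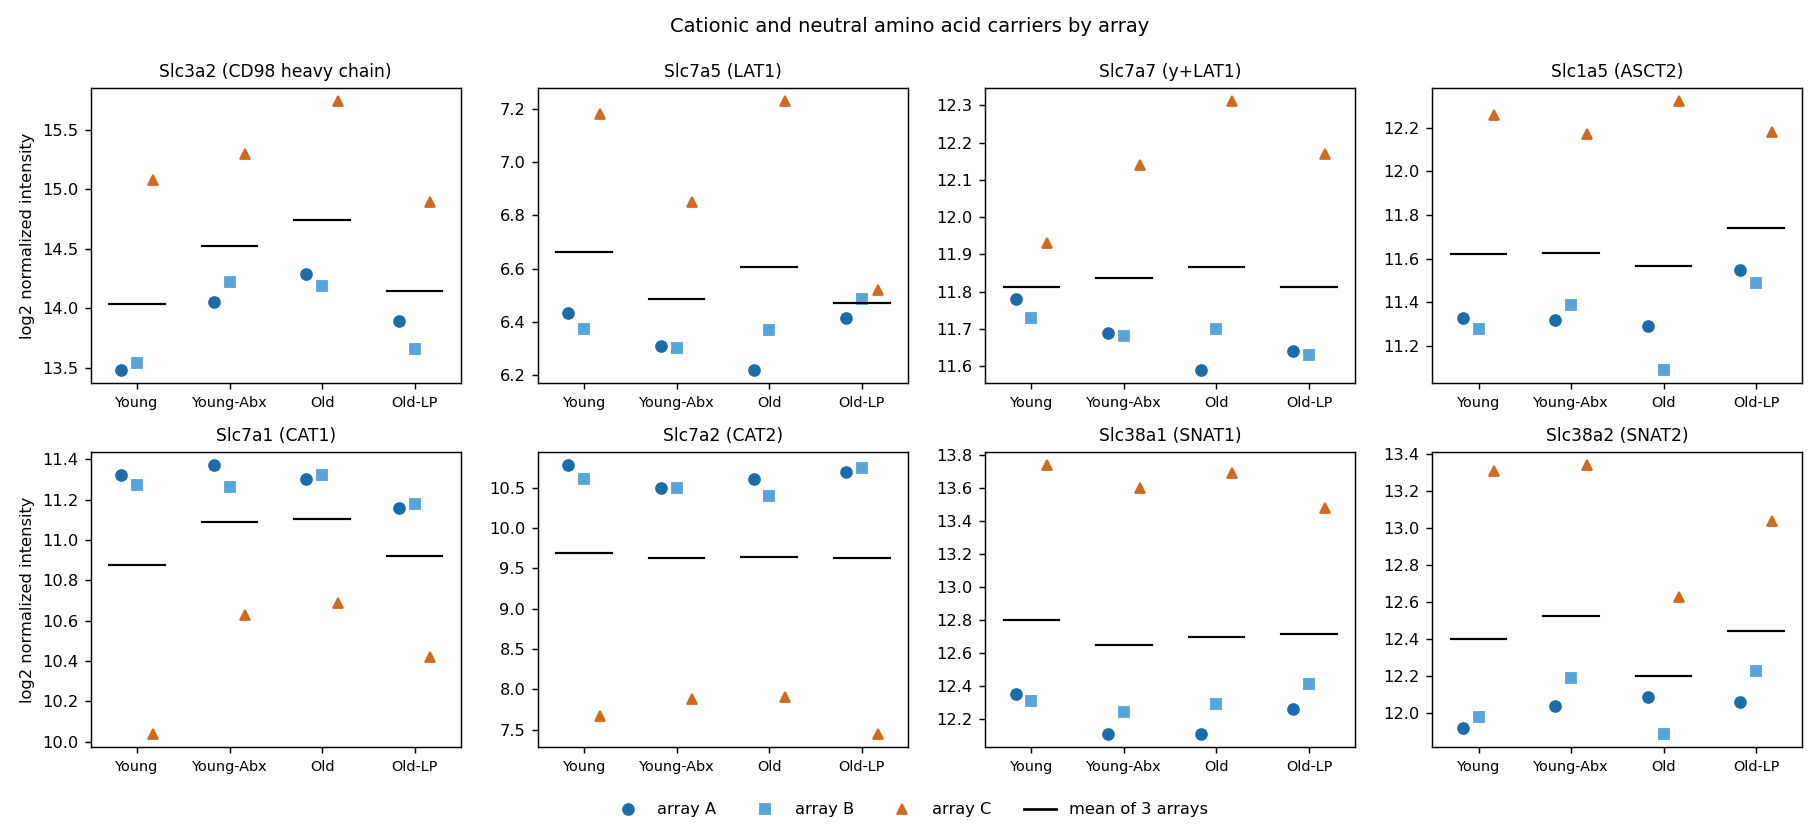
Log2 normalized intensity (y axis, scaled to each gene) of 8 carriers of cationic and neutral amino acids in each array by group (x axis), with the mean of 3 arrays as a line. For Slc7a2 the C arrays lie at 7.45 to 7.91 and the others at 10.40 to 10.78, while the 4 group means are within 9.63 to 9.69.

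The sodium-coupled neutral carriers of the Slc38 family, which take up glutamine, alanine and serine, number 11 here. Slc38a1 (SNAT1) lay at 12.11 to 13.74 and Slc38a2 (SNAT2, a carrier that cells raise when amino acids run short) at 11.89 to 13.34. Slc38a2 was among the 3 largest falls in Old against Young by size alone, at -0.20 (SE 0.483; limma, adjusted p of 1). Slc38a9, the lysosomal carrier that reports arginine to mTORC1, had group means of 9.78 ± 0.329, 9.68 ± 0.414, 9.77 ± 0.555 and 9.71 ± 0.182. Slc38a6 had means of 11.51 ± 0.375 in Young, 11.89 ± 0.232 in Young-Abx, 11.73 ± 0.168 in Old and 11.32 ± 0.444 in Old-LP. Slc38a7 and Slc38a10 lay at 9.75 to 11.29 and 10.81 to 11.80. Slc38a8 was 8.83, 8.86 and 10.02 in Old and 8.54, 8.22 and 7.50 in Old-LP. These did not overlap, with a difference of -1.15 (SE 0.404; limma, adjusted p = 0.595) that was -0.46 on slide 1 and -2.53 between the C arrays. Its second probe was on no array above background. Slc38a3 was above background on 1 array.

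Of the Slc43 family, Slc43a2 (LAT4, a carrier of large neutral amino acids) was 12.31, 12.38 and 12.66 in Young, 12.77, 12.78 and 12.97 in Old, 12.79, 12.70 and 13.17 in Young-Abx, and 12.52, 12.57 and 12.53 in Old-LP. Neither Old nor Young-Abx overlapped Young, and Old-LP did not overlap Old, but no comparison passed. Its second probe, also above background on all arrays, had the opposite sign at -0.35, -0.12 and 0.02 for Old and Young-Abx against Young and Old-LP against Old (SE 0.295, adjusted p of 1 in each). Slc43a1 (LAT3) was above background on 8 arrays at its brighter probe, where Old had a mean of 4.65 ± 1.6 and Young of 5.11 ± 0.441. At its other probe, above background on 7 arrays, Old exceeded Young by 2.31 (SE 0.586; limma, adjusted p = 0.194), so the probes disagree in sign. Slc43a3 lay at 7.25 to 8.85.

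The proton-coupled carriers of the Slc36 family act at lysosomes and at the plasma membrane. Slc36a1 (PAT1) was above background on 11 arrays and was 9.21, 8.68 and 6.64 in Old and 9.13, 9.41 and 8.76 in Old-LP. The difference of Old-LP against Old was 0.92 (SE 0.714; limma, adjusted p of 1), and it was 0.32 on slide 1 and 2.13 between the C arrays, and Old C was the lowest of the 12 arrays. In Old against Young Slc36a1 had -0.44 (adjusted p of 1), and its second probe had the opposite sign in both comparisons. Slc36a2 (PAT2) and Slc36a4 lay at 12.60 to 13.76 and 8.18 to 9.18, and Slc36a3 was above background on 5 arrays.

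The other carriers of the Slc6 family did not pass over the 12 arrays. The taurine carrier Slc6a6 was 12.88 to 14.55, with -0.20 in Old against Young (SE 0.546) and 0.25 in Old-LP against Old (adjusted p of 1 in each by limma). The creatine carrier Slc6a8 had means of 9.91 ± 0.675 in Young, 10.37 ± 0.531 in Young-Abx, 10.33 ± 0.797 in Old and 9.81 ± 0.339 in Old-LP. The betaine and GABA carrier Slc6a12 was 12.26, 12.44 and 11.90 in Old and 11.68, 11.52 and 11.82 in Old-LP, and the GABA carrier Slc6a13 was 11.61, 11.68 and 11.79 against 11.34, 11.24 and 11.52. Neither pair of groups overlapped. Slc6a9, the glycine carrier GlyT1 of erythroid and glial cells, was 10.28, 10.32 and 9.97 in Young and 10.55, 10.68 and 10.70 in Young-Abx, with no overlap and no call. Slc6a20a, a proline carrier, was above background on 11 arrays with differences of 0.71 in Old against Young (SE 0.375; limma, adjusted p = 0.982), 1.13 on slide 1 and -0.12 between the C arrays. Slc6a20b is a closely related copy, above background on 6 arrays, and cross-hybridisation between the copies was not tested. Slc6a20b differed by 1.09 in Old and 1.25 in Young-Abx against Young and by -1.38 in Old-LP against Old (SE 0.696), with overlap in each. Slc6a15, a carrier of branched-chain amino acids, differed by 1.73, 1.47 and -1.24 (SE 0.547; limma, adjusted p = 0.396, 0.936 and 0.837), and Slc6a7 by -1.37 in Old-LP against Old (SE 0.527; adjusted p = 0.699), all 3 genes near background. Slc6a7, Slc6a15, Slc6a16, Slc6a17 and Slc6a19 were above background on 3 to 8 arrays each.

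Across all 62 transporters, the median difference was 0.14 in Old against Young, 0.04 in Young-Abx against Young and -0.19 in Old-LP against Old, beside medians of 0.01, -0.02 and -0.01 over all probes. Of the 29 transporters above background on all arrays, 25, 27 and 23 differed by under 0.5 in the 3 comparisons, and the corresponding share of all such probes was 85.5%, 88.4% and 83.0%. Among these 29, 19 were higher in Old than in Young, 18 were higher in Young-Abx than in Young, and 5 were higher in Old-LP than in Old. Their median differences were small, at 0.098, 0.017 and -0.191, beside -0.011, -0.015 and 0.021 over all such probes. The share of all such probes that were higher was not counted. At an unadjusted p under 0.05, 4 transporters were higher and 0 lower in Old against Young (Slc1a1, Slc6a3, Slc6a4 and Slc6a15, beside 6% of all probes), and 5 were higher and 0 lower in Young-Abx against Young (the same 4 and Slc6a20a, beside 3.85%). Slc6a15 was above background on 4 arrays and, like Slc6a20b and Slc6a7, is given with values after these were seen. Of 32 transporters above background on every array of Old or Young, 3 did not overlap between the groups, all of them higher in Old, and the share over such probes was 12.2%. Of 34 in Young-Abx or Young, 7 were higher and 1 lower without overlap, beside 13% of probes. Of 32 in Old-LP or Old, 6 were lower without overlap, beside 12.7%.

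**Figure D5:**
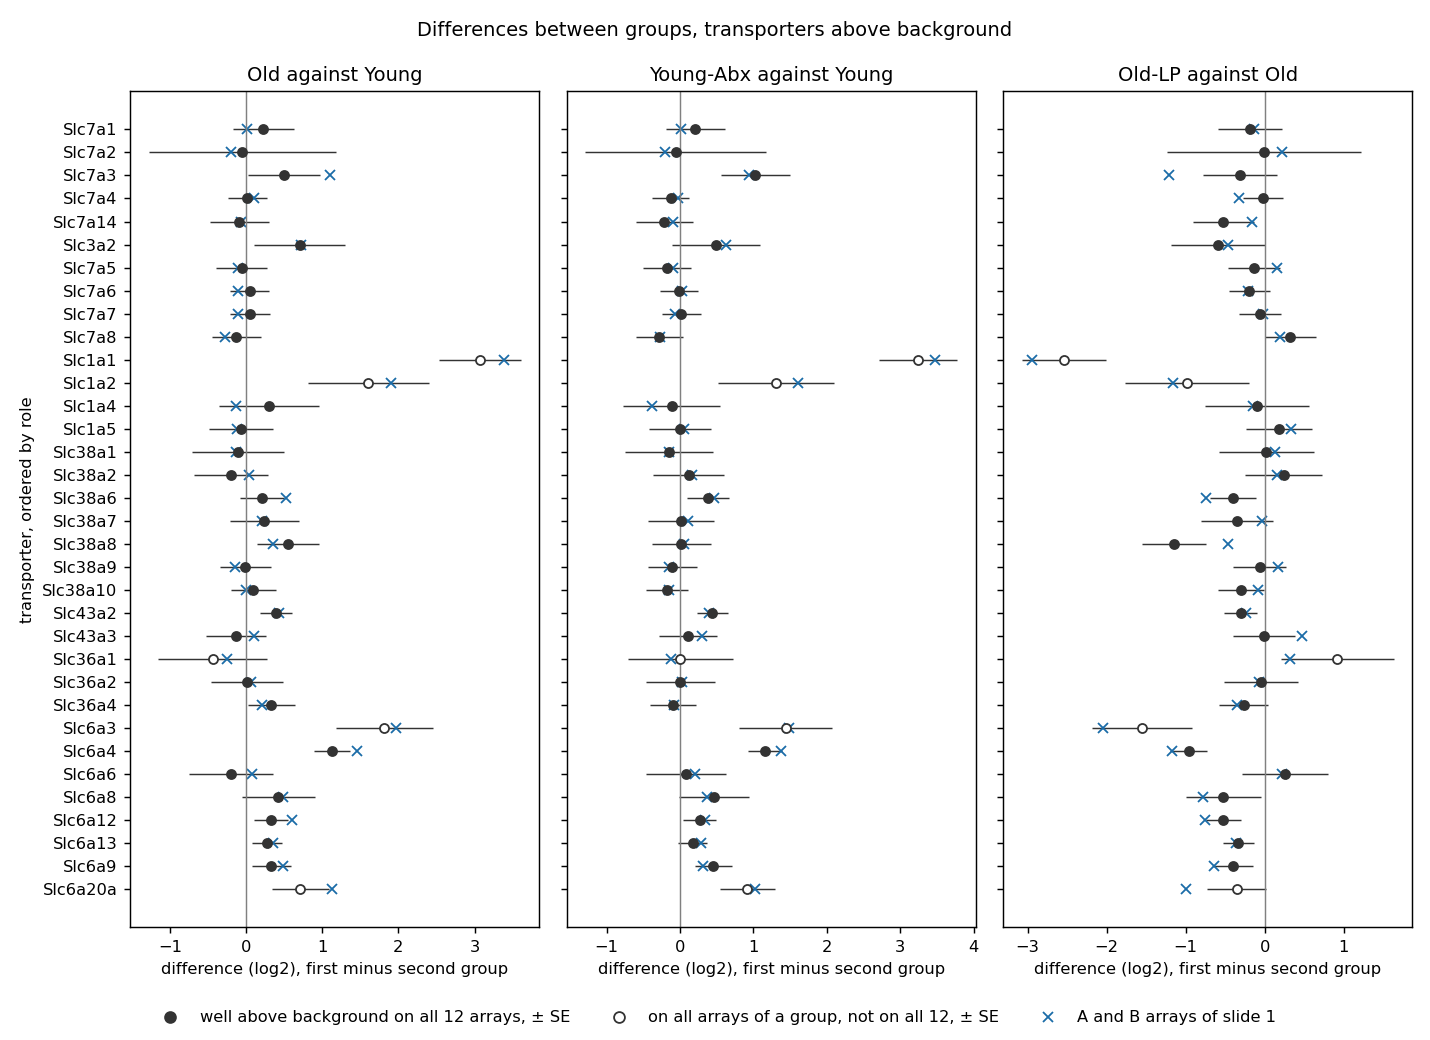
Difference in log2 intensity (x axis, first minus second group, ± SE) of the 34 transporters detected throughout 1 or more groups (y axis), from the fit to 12 arrays and, as crosses, from the A and B arrays of slide 1. Slc1a1, Slc1a2, Slc6a3 and Slc6a4 stand to the right in both comparisons with Young and to the left in Old-LP against Old, and 25 of the 29 filled points in Old against Young lie within 0.5 of zero.

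Fitted to the 8 arrays of slide 1 alone, a setting chosen after the C arrays were seen to stand apart, 12 transporters were called higher and 0 lower in Old against Young, beside 9.17% of all probes. They were Slc1a1, Slc1a2, Slc6a3 and Slc6a4, and Slc3a2, Slc7a3, Slc7a15, Slc38a6, Slc6a12, Slc6a15, Slc6a20a and Slc6a20b. In Young-Abx against Young 10 were called higher, beside 6.14%, with all of these except Slc38a6 and Slc6a12. In Old-LP against Old 10 were called lower, beside 8.24%. These were Slc1a1 at -2.94, Slc6a3 at -2.05, Slc6a15 at -1.49, Slc7a3 at -1.21, Slc6a4 at -1.18, Slc6a20a at -0.997, Slc6a8 at -0.79, Slc6a12 at -0.75, Slc38a6 at -0.75 and Slc6a9 at -0.64, with adjusted p from 0.000262 to 0.0378 by limma. Of these, Slc1a1, Slc6a3, Slc6a4, Slc6a8, Slc6a15, Slc7a3 and Slc38a6, 7 in all, were called lower in Old-LP against Young-Abx, beside 4.81%. Slc7a15, Slc6a15 and Slc6a20b were near background, with at most 6 arrays above it. With 2 arrays of a group on a single slide, these p-values rest on the spread between A and B only.

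The other 3 comparisons asked whether Old-LP differs from either young group and Old from Young-Abx. Old-LP against Young gave 0 calls of 62 by limma, beside 0% of all probes. At an unadjusted p under 0.05 only Slc6a7 (a proline carrier, -1.69, on no Old-LP array above background) was past the minimum difference, beside 1.12% of probes, and it is named here after its value was seen. Old against Young-Abx gave 0 calls, beside 0.00177% of probes, and 0 at the unadjusted p, beside 1.53%. Old-LP against Young-Abx gave 0 calls without a block, beside 0.163%. With the block Slc1a1 was called lower (-2.71, adjusted p = 0.00891, at least 2.67-fold), beside 0.588% of probes, and 3 transporters (Slc1a1, Slc6a4 and Slc6a7) were lower at the unadjusted p, beside 3.3%.

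Other genes of amino acid handling were counted in 4 lists with 119 measured genes: the amino acid response with serine synthesis, the lysosomal sensing of amino acids by mTORC1, the enzymes that use transported amino acids, and carriers of other families. The last list also holds Slc29a3, a nucleoside carrier, which is included in the counts. None of the 119 genes was called in any of the 6 comparisons by limma without a block. At an unadjusted p under 0.05 with the minimum difference, 2 were higher and 8 lower in Old against Young. The counts were 5 and 2 in Young-Abx against Young, and 8 and 2 in Old-LP against Old. In either direction, 6%, 3.85% and 5.79% of all probes passed in these 3 comparisons. With the block, 4 of 119 fell in Old against Young (beside 2.18% of all probes) and 3 rose in Old-LP against Old (beside 1.65%), and 0 were called in Young-Abx against Young.

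The 4 genes were Gls2, Kmo, Kynu and Rragd, and the 3 were Gls2, Kmo and Kynu. Gls2, a glutaminase that turns glutamine into glutamate, was 7.55, 7.36 and 6.37 in Young, 5.58, 5.33 and 5.31 in Old, 6.22, 6.29 and 5.66 in Young-Abx, and 7.41, 7.43 and 7.01 in Old-LP. Old lay below both Young and Old-LP without overlap, by -1.69 against Young (SE 0.329; limma, adjusted p = 0.0613, and 0.00663 with the block), and Old-LP was above Old by 1.88 (adjusted p = 0.0526, and 0.00598 with the block). Its probe was above background on 10 arrays, with 2 of 3 in Old and in Young-Abx. The kynurenine pathway enzymes Kmo and Kynu fell by 1.62 and 0.70 in Old against Young (block, adjusted p = 0.0119 and 0.0484), and rose by 1.57 and 0.73 in Old-LP against Old (block, adjusted p = 0.0172 and 0.0496). Rragd, a Rag GTPase of the mTORC1 sensor, fell by 0.71 in Old (block, adjusted p = 0.0445).

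The list of the amino acid response had a median difference of 0.07 in Old against Young, and 17 of its 26 measured genes were higher. Its largest difference was that of Chac1, a glutathione-degrading enzyme, which was 9.60, 9.60 and 11.40 in Young and 11.32, 11.32 and 11.42 in Old (1.15, SE 0.545; limma, adjusted p = 0.88), 1.72 on slide 1 and 0.02 between the C arrays. Ppp1r15a and Stc2 followed, at 0.64 and 0.58 (adjusted p of 1 in each). In the sensing list, with a median of -0.07, Nprl3, Mlst8 and Castor2 differed by 0.62, -0.42 and -0.40, and none passed. Among the enzymes, Gclm of glutathione synthesis differed by 0.88 (adjusted p = 0.504), Odc1 of polyamine synthesis by -0.85 and Prodh, the proline dehydrogenase, by 0.74, and none passed without a block or with the letter as one. With the slide as the block Chac1 (1.5, adjusted p = 0.0122), Gclm (1.13, adjusted p = 0.0127) and Odc1 (-1.15, adjusted p = 0.0421) passed in Old against Young by limma. In all, 8 of the 119 genes were called, beside 2.7% of all probes. Of carriers of other families, Slc25a13, the mitochondrial aspartate and glutamate carrier, differed by -0.51 (adjusted p = 0.615). Slc29a3, the nucleoside carrier in that list, and Slc16a10 differed by 0.42 and 0.27 (adjusted p of 1 in each).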

How the data were processed

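RNA of 12 DC cultures (4 groups of 3) was measured on one-colour arrays. The authors deposited the intensity of each spot, background-subtracted by Agilent Feature Extraction (version 12.1.1.1 in the file headers, 10.5 in the submitters' processing notes) and not normalized between arrays. They also deposited a table of log2 values for 46302 probes, which follow log2 of the median spot signal (r of 0.974 to 0.999) and were quantile normalized according to the methods; how its probes were chosen is not given in the sources used here. Here control spots were left out, 1068 outlier readings over the 12 arrays of 59305 spots were set to missing, and log2 intensities were quantile normalized and averaged per probe. Probes were named through their accessions in a RefSeq gene table (35405 of 56605 probes, 24232 symbols). R 4.3.3 with limma 3.58.1 (lmFit and eBayes) fitted a mean per group to all 12 arrays, and p-values are two-sided and Benjamini-Hochberg adjusted over all probes. Slides were read from the file headers. The number of arrays and, on the C arrays, the dim signal limit the precision.

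The transporters, gene lists and tests were chosen with earlier results of these data known. Named in full are transporters called in any comparison with or without the replicate block, the 12 with the highest mean signal, and the 3 largest rises and falls in each of the first 3 comparisons among those above background, and of the pathway lists the called genes and up to 3 others each. Slc6a20a and Slc6a20b were kept although their symbols end in a letter, and 2 opposite-strand transcripts (Slc36a1os and Slc7a6os) were left out. A fold bound sets the bright group's mean against, per array, the higher of the lowest signal well above background and the dim probe's own. It is a minimum only where every array of the bright group is well above background.

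Same-letter arrays of different groups deviated together from their group means (r of 0.414 to 0.711 in 18 pairs), so the letter was used as a block. A and B also deviated together (0.449 to 0.570), whereas the C arrays opposed them (-0.659 to -0.466), so the letters mainly set C apart. The alternatives were a shift by the 75th percentile, normexp with an offset of 50 on the median signal (the mean signal that was planned is not a column used here), the deposited log2 table, a filter on dim probes, the mean over a gene's probes, the letter or slide as a block, the compared groups alone, outlier spots kept, an intensity trend and each array left out. The steps were tested on simulated data. Some genes in these counts are not reported here by name.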

Additional observations from a re-analysis of the deposited data

How the results depend on the processing

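Slc1a1 kept its direction in both comparisons with Young under every alternative run, and its call did not hold under all. In Old against Young, 0 transporters were called with the 75th percentile shift, the compared groups alone or an intensity trend, 2 with the filter on dim probes (fewer probes tested), 4 with the replicate block and 4 with the slide block. In Young-Abx against Young, 0 were called with those first 3 settings or the mean over a gene's probes, 2 with normexp or the filter, and 3 with the slide block. The replicate block gave 1 call in Old-LP against Old and 1 in Old-LP against Young-Abx, and the slide block 3 and 1. The A and B arrays of slide 1 gave 12, 10, 10 and 7 calls in these 4 comparisons, in that order. Leaving out 1 array gave 0 to 1 call in Old against Young, 0 to 2 in Young-Abx against Young (2 without Old C, with Slc6a4), 0 to 1 in Old-LP against Old and in Old-LP against Young-Abx (1 only without Old-LP C), and 0 in Old-LP against Young and in Old against Young-Abx. Of the 119 pathway genes, the replicate block called 4 in Old against Young and 3 in Old-LP against Old (beside 2.18% and 1.65% of all probes). The slide block called 8, 4, 11 and 1 in the 4 comparisons, beside 2.7%, 2.04%, 3.29% and 0.728%. Slide 1 alone gave 20, 16, 21 and 13, beside 9.17%, 6.14%, 8.24% and 4.81%. Except where named, the cause was not tested.

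Of 564 values of 24 named changes under an alternative, 18 reversed, and all belong to transporters without a call in any of these comparisons. In Old against Young, Slc36a1 gave 0.0829 with the mean over probes and 0.61 at its other probe, Slc38a2 gave 0.0441 and Slc6a6 0.0736 on slide 1, and leaving out 1 array gave -1.02 to 0.33 for Slc36a1 (above 0 without Old C), -0.44 to 0.25 for Slc38a2 and -0.48 to 0.36 for Slc6a6 (both above 0 without Young C). In Young-Abx against Young, Slc7a14 gave 0.29 and Slc7a8 0.0543 with the mean over probes and 0.80 and 0.39 at their other probes, and leaving out 1 array gave -0.47 to 0.14 for Slc7a14 and -0.36 to 0.0825 for Slc7a5 (both above 0 without Young C). In Old-LP against Old, the other probes gave -0.54 for Slc36a1, 0.20 for Slc38a8 and -0.10 for Slc7a8, and leaving out 1 array gave -0.0617 to 0.54 for Slc6a6 and -0.0287 to 0.55 for Slc7a8 (both below 0 without Old-LP C). Signal over background limits the 33 transporters not detected on all arrays, and the dim C arrays limit the rest.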
